A study of Mus musculus with 2 samples.

Results

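The acute phase proteins examined here are 9 secreted proteins or their close relatives, encoded by Serpina3n, Serpina3g, Hp, Lcn2, Saa3, Il1rn, Lrg1, Cp and Kng1, in resident cells of mouse bone. They are 9 of the 21905 genes in the deposited tables, and all 9 reached 10 UMIs (unique molecular identifiers, which count captured transcript molecules) in CAR-like cells. CAR cells are the CXCL12-abundant reticular cells of marrow stroma. The members were chosen by name, and Serpina3n was picked because it was higher in CAR-like cells after doxorubicin, so that difference is given as a description. The study asked how chemotherapy changes the resident cells of bone. Both groups were 12-week-old female C57BL/6 mice, 1 library of vehicle-treated bone (Veh) and 1 of bone taken 96 h after doxorubicin at 10 mg/kg (Doxo), an anthracycline that damages DNA. Cells were released from femurs and tibias with collagenase, depleted of CD45+ cells on magnetic beads, and sorted to remove cells carrying CD45, CD71 or Ter119. The labels also list CD31, an endothelial marker, among the depleted antigens, yet endothelial-like cells were present. How many mice stood behind each library is not given in the sources used here. With 1 library a condition, treatment and library cannot be told apart, no p-value can be given, and every interval below is a 95% exact interval that covers counting error only. UMIs of several members lay in single cells, which such intervals do not reflect.

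The acute phase response is the change in secreted proteins that follows infection, injury or tissue damage. Interleukin-6 and its relatives act through STAT3, and interleukin-1 and TNF act through NF-kB and C/EBP factors, to raise transcription of these genes, chiefly in hepatocytes. Several are also made outside the liver. Their products inhibit proteases, scavenge hemoglobin, iron and copper, limit interleukin-1 signalling, or feed the kinin system. CAR cells surround marrow sinusoids and secrete CXCL12, stem cell factor and adipokines.

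Each library held 2488 cells, with 24859695 UMIs in Veh and 20792012 in Doxo. The median cell had 8693 UMIs in Veh and 7347.5 in Doxo. Cells were clustered with the acute phase genes left out of the variable genes, and clusters were named from fixed marker lists. CAR-like cells numbered 372 in Veh and 427 in Doxo, and all 8 CAR markers were higher in their cluster than elsewhere. The other classes, in Veh and Doxo respectively, were 1103 and 1367 bone and cartilage fibroblast-like cells, 414 and 240 arteriolar and endosteal fibroblast-like cells, 205 and 125 osteoblast-like cells, 247 and 205 chondrocyte-like cells, and 103 and 69 endothelial-like cells. A cluster of 44 and 55 cells was left unnamed. Its leading genes were Tmem196, Clic5, Pcbd1 and Rab37, and Prg4, the joint lubricant gene, stood at 87777 and 89194 CPM there (UMIs per 1000000 UMIs of the class). Prg4 was also high in bone and cartilage fibroblast-like cells, for which it is a listed marker, at 31347 and 35823 CPM. Because 3′ ends were counted, CPM values do not scale with transcript length. Exactly 4 cell barcodes occurred in both libraries, and these 8 cells held 82 UMIs of the members. RNA of neutrophils and red cells differed between the libraries. The 10 neutrophil markers summed to 1588 CPM in Veh CAR-like cells and 106 CPM in Doxo, with 3681 of the 4026 Veh UMIs in 2 cells, while bone and cartilage fibroblast-like cells had 1312 and 116 CPM. All 10 were detected in CAR-like cells. In the remaining classes the same sum ranged from 46.8 to 195 CPM. The 8 erythroid markers, all detected in CAR-like cells, summed to 1039 CPM in Veh CAR-like cells and 12.3 CPM in Doxo.

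RefSeq promoter windows of GRCm38.p6, each running from 250 bases before to 50 bases after a start site, matched 7 of the 9 members with 10 windows in all. The windows of Serpina3n, Serpina3g, Lcn2 and Saa3 are shown because a pair of serpin genes of 1 gene cluster and the inflammation genes Lcn2 and Saa3 had unlike patterns over the cell classes. Capitals mark matches on either strand to the STAT motif GAS (TTCNNNGAA), the C/EBP motif (TTNNGCAA) or the NF-kB motif, and no motif matches overlapped in them.
Serpina3n: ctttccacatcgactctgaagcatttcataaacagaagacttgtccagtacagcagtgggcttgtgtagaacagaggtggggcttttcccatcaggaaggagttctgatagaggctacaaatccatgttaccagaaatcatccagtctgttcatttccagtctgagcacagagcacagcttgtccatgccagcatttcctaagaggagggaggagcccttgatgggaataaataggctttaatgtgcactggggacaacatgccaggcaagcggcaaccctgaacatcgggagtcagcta
Serpina3g: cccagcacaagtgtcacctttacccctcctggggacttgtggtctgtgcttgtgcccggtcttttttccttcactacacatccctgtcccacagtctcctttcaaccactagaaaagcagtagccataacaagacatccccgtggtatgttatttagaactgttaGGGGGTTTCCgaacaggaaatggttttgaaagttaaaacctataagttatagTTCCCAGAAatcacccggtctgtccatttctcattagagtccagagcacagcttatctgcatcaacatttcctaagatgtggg
Lcn2: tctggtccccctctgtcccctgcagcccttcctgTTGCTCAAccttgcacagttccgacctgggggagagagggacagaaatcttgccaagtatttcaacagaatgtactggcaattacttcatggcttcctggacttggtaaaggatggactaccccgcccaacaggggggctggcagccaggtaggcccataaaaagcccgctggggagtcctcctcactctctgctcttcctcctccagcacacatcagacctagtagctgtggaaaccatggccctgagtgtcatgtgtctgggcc
Saa3: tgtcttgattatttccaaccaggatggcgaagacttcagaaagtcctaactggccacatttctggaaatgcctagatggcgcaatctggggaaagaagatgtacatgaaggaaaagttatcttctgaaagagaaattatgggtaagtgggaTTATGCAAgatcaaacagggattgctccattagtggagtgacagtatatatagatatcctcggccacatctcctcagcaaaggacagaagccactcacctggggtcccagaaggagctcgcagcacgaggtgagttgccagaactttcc
The Serpina3n window lies at chr12:104406458-104406757 on the plus strand and held none of these letters. The Serpina3g window, at chr12:104235897-104236196 on the plus strand, held an NF-kB match from 85 to 76 bases before the start and a GAS match from 33 to 25 bases before it. Lcn2 is read from the minus strand, with its window at chr2:32387690-32387989 and a C/EBP match, on the opposite strand to the gene, from 216 to 209 bases before the start. Saa3, also on the minus strand, has its window at chr7:46715627-46715926 and a C/EBP match from 99 to 92 bases before the start. Distances are from the RefSeq start. A stretch of bases just after it was found in GENCODE transcripts of Lcn2, but in none of Serpina3n, Serpina3g or Saa3. A miss can come from a different start or from a first exon that ends within the stretch, and a match does not place the start. Starts of all of these genes may therefore differ between the annotations. Among the remaining windows of members, 1 of those of Cp, at chr3:19956999-19957298 on the plus strand, held a C/EBP match from 70 to 63 bases before its start. Of all 32851 RefSeq promoter windows, 8.30% held the GAS letters, 10.8% the C/EBP letters and 8.46% the NF-kB letters, so a match is no more than a description of the window.

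The summed members made up 0.627% of the UMIs of CAR-like cells in Veh and 0.942% in Doxo. Haptoglobin (Hp) alone gave 71.5% of the member UMIs in Veh and 77.6% in Doxo. Of the 9 members, 1 was at least 2-fold higher in Doxo CAR-like cells, Serpina3n, whose place there the choice of members had fixed, and 0 were at least 2-fold lower. Among all 12796 genes with at least 10 UMIs in CAR-like cells, 5.16% were at least 2-fold higher and 4.95% at least 2-fold lower. The median log2 ratio of Doxo to Veh was 0.41 over the 9 members and 0.06 over all those genes. Ratios here add 0.5 UMIs to each library, which keeps ratios of low counts finite.

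**Figure D1:**
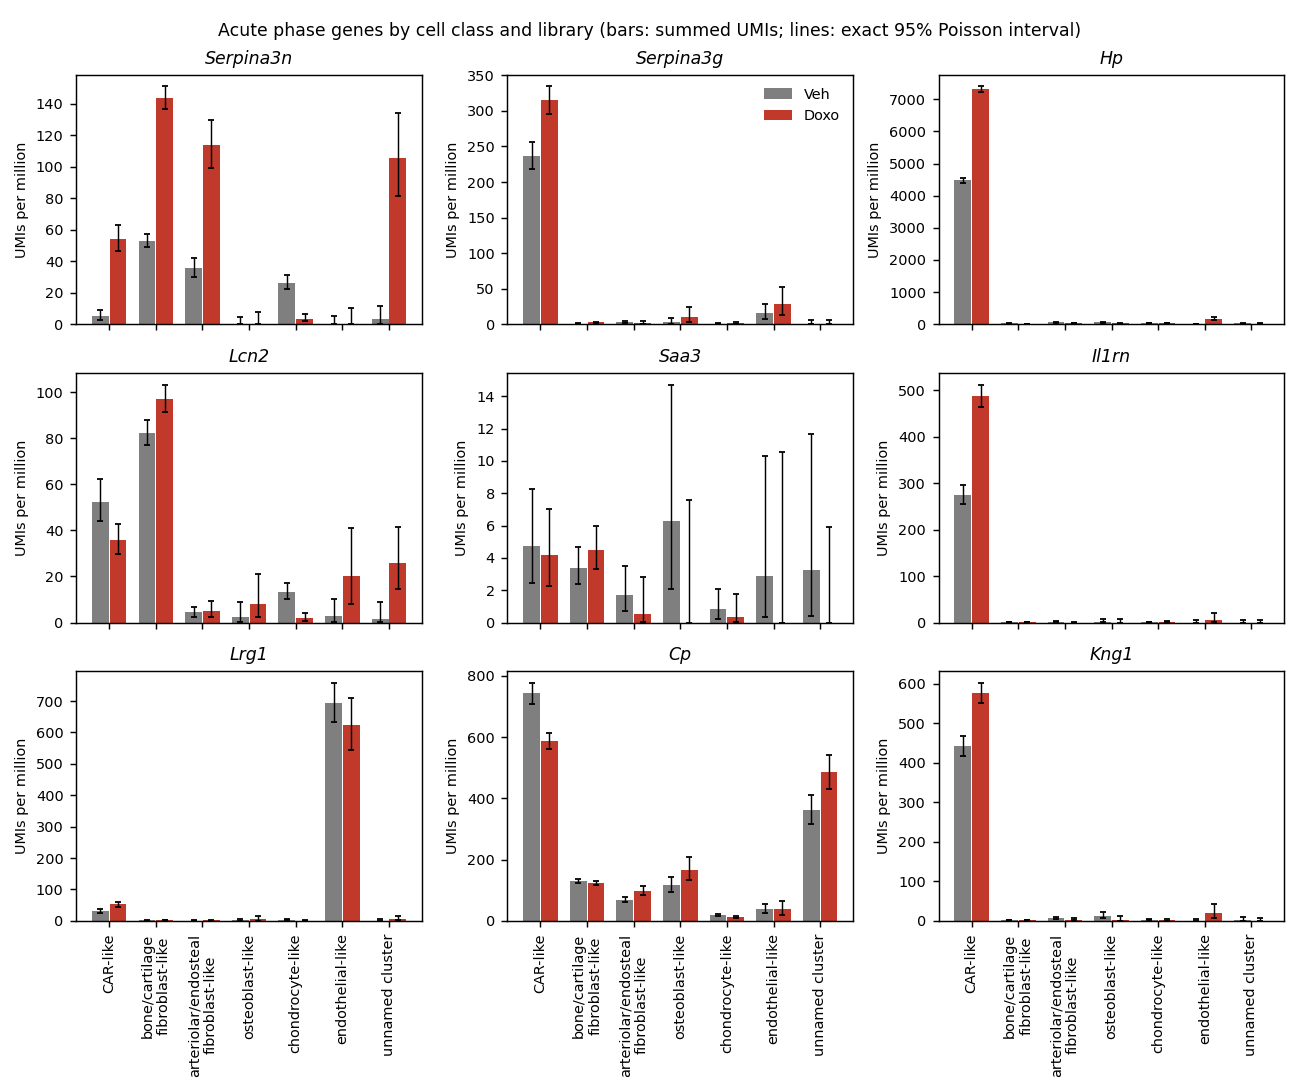
Level of each member by cell class. Each panel plots CPM (UMIs of the gene per 1000000 UMIs of the class) of 1 gene over the 7 cell classes in the Veh and Doxo libraries, with 95% exact Poisson intervals. Hp, Il1rn, Kng1 and Serpina3g are highest in CAR-like cells in both libraries, Lrg1 is highest in endothelial-like cells (693 CPM in Veh, 623 in Doxo), and Serpina3n is highest in bone and cartilage fibroblast-like cells (53.1 and 144 CPM).

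Serpina3n encodes a secreted inhibitor of serine proteases such as granzyme B and neutrophil elastase, and lies at chr12:104406729-104414329. CAR-like cells had 14 UMIs in the Veh library (5.52 CPM, 3.02 to 9.26) and 182 UMIs in the Doxo library (54.4 CPM, 46.8 to 62.9), for a log2 ratio of 3.25 (2.52 to 4.20). The UMIs came from 10 of 372 cells in Veh and 78 of 427 in Doxo, and the Doxo cells ranged up to 26 UMIs. With every cell thinned to 2000 UMIs, the share of CAR-like cells with Serpina3n was 0.845% (0.175% to 2.45%) in Veh and 7.21% (4.92% to 10.1%) in Doxo. So the transcript stayed below detection in most CAR-like cells of either library at this depth. CAR-like cells held only 1.58% of all Serpina3n UMIs in Veh and 8.87% in Doxo.

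Most Serpina3n lay in fibroblasts. Bone and cartilage fibroblast-like cells had 596 UMIs in the Veh library (53.1 CPM, 49.0 to 57.6) and 1567 UMIs in the Doxo library (144 CPM, 137 to 151), for a log2 ratio of 1.44 (1.30 to 1.57), in 12.7% (10.8% to 14.8%) and 19.9% (17.8% to 22.1%) of cells. Arteriolar and endosteal fibroblast-like cells had 147 UMIs in the Veh library (35.6 CPM, 30.1 to 41.9) and 225 UMIs in the Doxo library (114 CPM, 99.3 to 129.5), for a log2 ratio of 1.67 (1.37 to 1.98). The unnamed cluster, rich in Prg4, had 2 UMIs in the Veh library (3.23 CPM, 0.391 to 11.7) and 66 UMIs in the Doxo library (106 CPM, 81.7 to 134), for a log2 ratio of 4.72 (3.12 to 8.11). Of those 66 UMIs, 52 lay in 3 of the 55 cells. In each of these fibroblast classes and in the unnamed cluster the interval of the Doxo level lay above that of Veh. Chondrocyte-like cells went the other way, with 129 UMIs in the Veh library (26.5 CPM, 22.1 to 31.5) and 11 UMIs in the Doxo library (3.54 CPM, 1.77 to 6.34), and a log2 ratio of -2.85 (-3.94 to -2.02). In that class 62 of the 129 Veh UMIs lay in a single cell, the deepest of the Veh library with 64938 UMIs. That cell held 721 UMIs of the bone and cartilage fibroblast markers beside 1537 of the chondrocyte markers. Over all Veh chondrocyte-like cells the same fibroblast markers summed to 7940 CPM, so they were not particular to that cell. Without the highest cell of each library the chondrocyte-like ratio was -2.35.

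No Serpina3n UMI was found in osteoblast-like or endothelial-like cells of either library. The upper bounds that a count of 0 leaves are 4.65 CPM in Veh and 7.58 CPM in Doxo osteoblast-like cells, and 5.26 and 10.5 CPM in endothelial-like cells. In Doxo the order of levels ran from bone and cartilage fibroblast-like cells through arteriolar and endosteal fibroblast-like cells, the unnamed cluster and CAR-like cells to chondrocyte-like cells, and the only neighbours with overlapping intervals were arteriolar and endosteal fibroblast-like cells and the unnamed cluster. In Veh, chondrocyte-like cells ranked between the fibroblast classes and CAR-like cells, and the intervals of arteriolar and endosteal fibroblast-like and chondrocyte-like cells overlapped, as did those of CAR-like cells and the unnamed cluster.

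**Figure D2:**
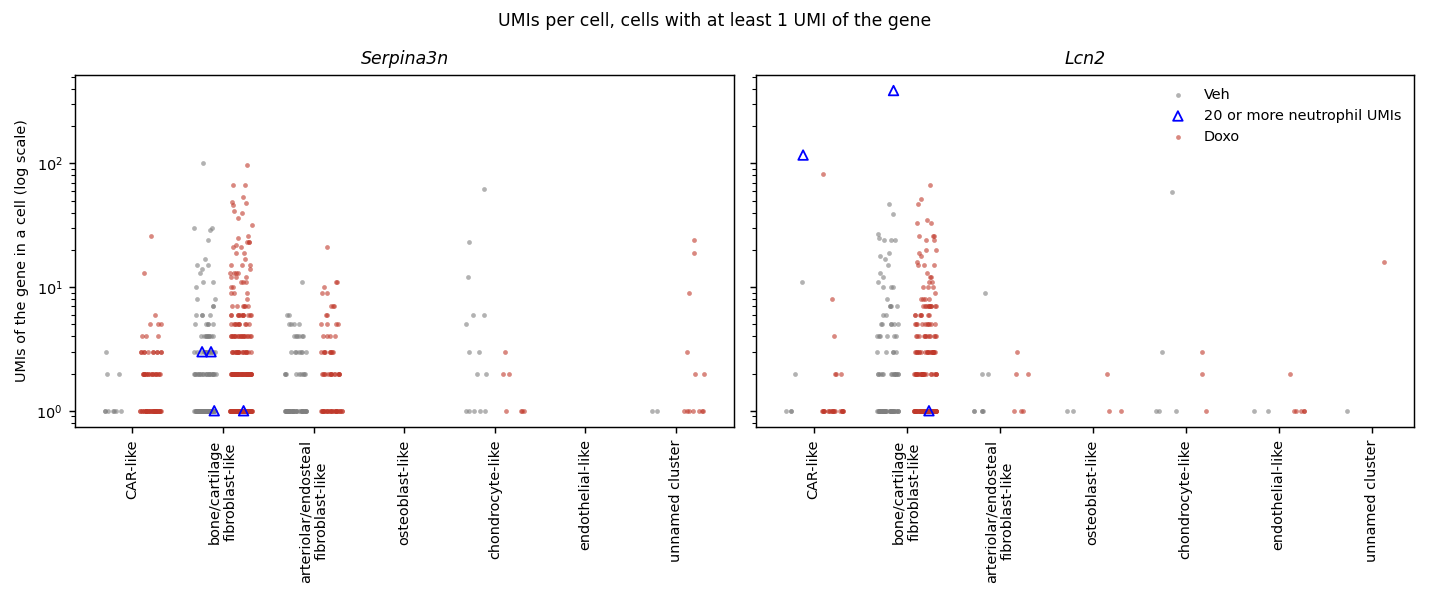
UMIs of Serpina3n and Lcn2 in single cells. Each point is a cell with at least 1 UMI of the gene, by class and library, on a log axis of UMIs per cell, and triangles are cells with at least 20 UMIs of the neutrophil marker list. In CAR-like cells no cell has more than 26 of the 182 Doxo Serpina3n UMIs, and 1 Veh chondrocyte-like cell has 62 of 129. For Lcn2, 1 Veh CAR-like cell holds 117 of the 133 Lcn2 UMIs of its class and 1 Veh fibroblast-like cell holds 389 of 923, both of them triangles.

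Serpina3g, known as an inhibitor of lysosomal cathepsins within the cell, differed from Serpina3n in where it was found. The gene lies at chr12:104236245-104241939, 164.8 kb from Serpina3n within a cluster of 11 Serpina3 genes that spans 301.6 kb. CAR-like cells had 599 UMIs in the Veh library (236 CPM, 218 to 256) and 1054 UMIs in the Doxo library (315 CPM, 296 to 334), for a log2 ratio of 0.41 (0.27 to 0.56). They held 94.6% of all its UMIs in Veh and 95.5% in Doxo, in 51.6% and 62.1% of CAR-like cells, against 26.2% and 32.5% with cells thinned to 2000 UMIs. Bone and cartilage fibroblast-like cells, where Serpina3n was highest, had 7 Serpina3g UMIs in Veh and 28 in Doxo (0.624 and 2.57 CPM), and a log2 ratio of 1.97 (0.81 to 3.48) on those few. Over the 14 class and library levels, log2(CPM + 1) of the pair had a Pearson correlation of -0.23, as a description of points that share 2 libraries. Of 90-base stretches within the last 500 bases of transcripts, 0 of 411 from Serpina3n and 80 of 1114 (7.18%) from Serpina3g occurred in another gene (Serpina3f, Serpina3h or Serpina3i), so a part of the Serpina3g count is uncertain.

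Of the 9 other Serpina3 genes, those with at least 10 UMIs in bone cells were Serpina3c, Serpina3f and Serpina3m. Serpina3c and Serpina3f had their most UMIs in CAR-like cells. Serpina3c had 97 UMIs there in Veh and 185 in Doxo, for a log2 ratio of 0.53, and Serpina3f had 176 and 242, for a log2 ratio of 0.06, with 41 of the Veh UMIs in 1 cell. Serpina3m instead followed the fibroblasts, with 4 UMIs over 4 Veh cells and 39 over 29 Doxo cells of the bone and cartilage class, for a log2 ratio of 3.18 (1.86 to 5.27), and 0 and 3 UMIs in CAR-like cells.

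Hp encodes haptoglobin, which captures free hemoglobin for clearance, and lies at chr8:109575128-109579172. It was the most abundant member, with 11360 UMIs in the Veh library (4480 CPM, 4398 to 4563) and 24457 UMIs in the Doxo library (7306 CPM, 7214 to 7398) in CAR-like cells, for a log2 ratio of 0.71 (0.67 to 0.74). Nearly every CAR-like cell had it, 356 of 372 in Veh and 420 of 427 in Doxo, and the median cell had 19 and 45 UMIs. CAR-like cells held 93.3% of all Hp UMIs in Veh and 98.1% in Doxo. Outside them the level ranged from 7.13 to 174 CPM. The upper end came from endothelial-like cells in Doxo, where 52 of 61 UMIs lay in 1 cell that also had 40 UMIs of Adipoq, an adipokine gene of CAR cells, and 381 UMIs of the CAR markers. Among bone and cartilage fibroblast-like cells 11.2% had an Hp UMI in Veh and 10.2% in Doxo, mostly 1 each, at 25.9 and 18.7 CPM. The share of endothelial-like cells with a UMI was 4.85% in Veh, at a median depth of 6326 UMIs against 6218 in CAR-like cells.

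Cp encodes ceruloplasmin, a copper-carrying ferroxidase that loads iron onto transferrin, and lies at chr3:19957054-20009145. Unlike Hp it was somewhat lower in Doxo CAR-like cells, with 1883 UMIs in the Veh library (742 CPM, 709 to 777) and 1964 UMIs in the Doxo library (587 CPM, 561 to 613), for a log2 ratio of -0.34 (-0.43 to -0.25). The median stood at 4 UMIs per CAR-like cell in both libraries. Cp was also the most widely spread member, with 46.6% of its UMIs in CAR-like cells in Veh and 49.8% in Doxo. The unnamed cluster came next with 362 and 485 CPM, for a log2 ratio of 0.42 (0.17 to 0.68). Bone and cartilage fibroblast-like cells had 128 and 124 CPM, for a log2 ratio of -0.05 (-0.16 to 0.06) whose interval spans 0. Osteoblast-like cells had 117 and 166 CPM, and the order of these classes is not resolved in Veh, where their intervals overlap.

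Kng1 encodes kininogen, the precursor from which kallikreins release bradykinin, and lies at chr16:23057865-23082078. CAR-like cells had 1119 UMIs in the Veh library (441 CPM, 416 to 468) and 1927 UMIs in the Doxo library (576 CPM, 550.2 to 602), for a log2 ratio of 0.38 (0.28 to 0.49), and 2 and 4 UMIs in the median cell. They held 94.6% and 98.0% of its UMIs, and thinned shares of CAR-like cells with Kng1 were 47.6% in Veh and 61.5% in Doxo. Kng2, its paralog, had 1235 and 2489 UMIs in CAR-like cells, for a log2 ratio of 0.61, and the 3′ ends of the pair shared 23 of 1397 stretches of Kng1 (1.65%).

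Il1rn encodes the interleukin-1 receptor antagonist, which occupies the receptor without signalling, and lies at chr2:24336853-24351494. CAR-like cells had 697 UMIs in the Veh library (275 CPM, 255 to 296) and 1634 UMIs in the Doxo library (488 CPM, 465 to 512), for a log2 ratio of 0.83 (0.70 to 0.96). Its UMIs came from 165 of 372 cells in Veh and 303 of 427 in Doxo, or 27.0% and 46.2% of cells after thinning. No other class exceeded 5.71 CPM, and CAR-like cells held 96.9% and 99.0% of the UMIs. Lrg1, a leucine-rich glycoprotein that acts on TGF-beta signalling through endoglin in vessels, lies at chr17:56119678-56122001 and had its highest level in endothelial-like cells. Those cells had 486 UMIs in the Veh library (693 CPM, 633 to 758) and 218 UMIs in the Doxo library (623 CPM, 543 to 711), for a log2 ratio of -0.15 (-0.39 to 0.08) whose interval spans 0. CAR-like cells had 75 UMIs in the Veh library (29.6 CPM, 23.3 to 37.1) and 176 UMIs in the Doxo library (52.6 CPM, 45.1 to 60.9), for a log2 ratio of 0.82 (0.43 to 1.24). The share of all Lrg1 UMIs in CAR-like cells was 12.7% in Veh and 41.3% in Doxo, while the libraries held 103 and 69 endothelial-like cells.

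Lcn2 encodes lipocalin 2, which binds bacterial siderophores and is abundant in neutrophil granules, and lies at chr2:32384633-32388252. CAR-like cells had 133 UMIs in the Veh library (52.5 CPM, 43.9 to 62.2) and 120 UMIs in the Doxo library (35.9 CPM, 29.7 to 42.9), for a log2 ratio of -0.55 (-0.92 to -0.18), but 6 of 372 and 26 of 427 cells with a UMI. A single Veh cell held 117 of the 133 UMIs together with 3659 UMIs of the neutrophil markers, 967 of them S100a8. A single Doxo cell held 82 of the 120, with 26 Serpina3n UMIs and 164 UMIs of bone and cartilage fibroblast markers. Leaving out the highest cell of each library turned the ratio to 0.82, and leaving out cells with at least 20 neutrophil UMIs turned it to 2.45, so the direction of Lcn2 in CAR-like cells depended on single cells.

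Bone and cartilage fibroblast-like cells held most Lcn2, with 923 UMIs in the Veh library (82.3 CPM, 77.1 to 87.8) and 1059 UMIs in the Doxo library (97.2 CPM, 91.4 to 103), for a log2 ratio of 0.24 (0.11 to 0.37). Of the Veh UMIs 389 lay in 1 cell that had 13616 UMIs of the neutrophil markers, and without the highest cells the ratio was 0.93. By cells, 9.07% (7.44% to 10.9%) had Lcn2 in Veh and 13.6% (11.8% to 15.5%) in Doxo, and after thinning 3.81% (2.75% to 5.13%) and 6.55% (5.28% to 8.01%). Saa3, a serum amyloid A of extrahepatic tissues that lies at chr7:46711998-46715700, was scarce throughout, at no more than 6.31 CPM in any class. CAR-like cells had 12 UMIs in Veh and 14 in Doxo, for a log2 ratio of -0.19 (-1.40 to 1.06). Fibroblast-like cells of bone and cartilage had 38 Veh UMIs in 38 cells, whereas 41 of their 49 Doxo UMIs lay in 1 cell.

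**Figure D3:**
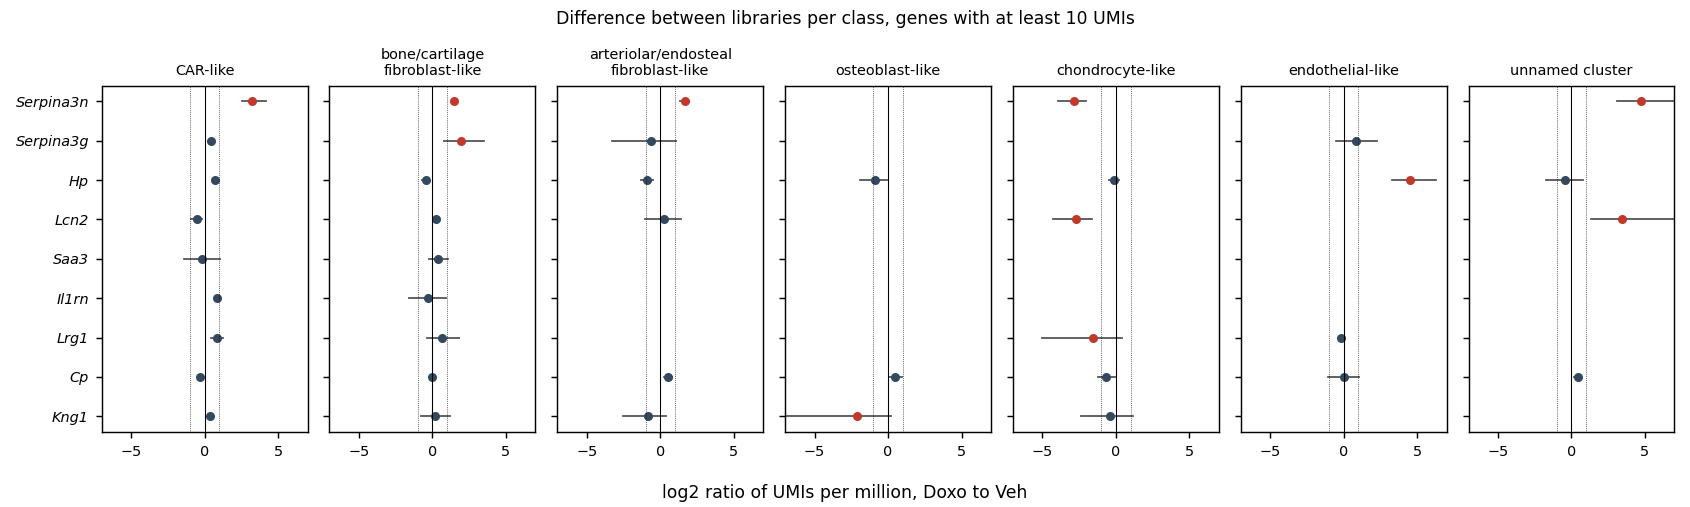
Doxo against Veh in each cell class. Points are log2 ratios of Doxo to Veh (log2 of the CPM ratio with 0.5 UMIs added) of members with at least 10 UMIs in the class, 1 panel a class, with 95% exact conditional binomial intervals that are cut at the edge of the axis, and red marks ratios past 2-fold. Serpina3n is past 2-fold upward in 4 classes and downward in chondrocyte-like cells, while the most abundant members of CAR-like cells stay within 2-fold.

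The members past 2-fold were also counted outside CAR-like cells. In bone and cartilage fibroblast-like cells 2 of 9 members with at least 10 UMIs were higher in Doxo, Serpina3n and Serpina3g, where 2.15% of all 14425 such genes were, and 0 were lower, where 5.36% of genes were. In arteriolar and endosteal fibroblast-like cells 1 of 6 was higher, Serpina3n, beside 2.93% of genes, and 0 were lower, beside 5.58%. The unnamed cluster had 2 of 4 higher, Serpina3n and Lcn2, beside 6.61% of genes, and 0 lower, beside 4.72%, but all 16 Doxo UMIs of Lcn2 lay in 1 cell. Endothelial-like cells had 1 of 4 higher, Hp, beside 8.50% of genes, and 0 lower, beside 5.47%, and that 1 rests on the cell with CAR markers described above. Osteoblast-like cells had 0 of 3 higher, beside 6.10%, and 1 lower, Kng1 with 10 and 1 UMIs, beside 9.47%. Chondrocyte-like cells had 0 of 6 higher, beside 6.38%, and 3 lower, Serpina3n, Lcn2 and Lrg1, beside 6.82% of genes. All 3 rest in part on the deepest Veh cell, which held 62 of 129, 59 of 65 and 7 of 11 of their Veh UMIs. Without the highest cells the log2 ratios there were -2.35 for Serpina3n, -0.25 for Lcn2 on 9 UMIs, and -0.95 for Lrg1.

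Clustering within CAR-like cells gave 3 populations. The first, with 278 Veh and 408 Doxo cells, held most CAR-like cells of both libraries. The second was rich in Il6, Ccl2 and Cxcl1 and had 81 Veh but 3 Doxo cells. The third had 13 and 16 cells with markers of bone and cartilage fibroblasts, at a high median depth of 13078 and 19174.5 UMIs. Within the first population Serpina3n had 8 UMIs over 6 Veh cells and 128 over 68 Doxo cells, for a log2 ratio of 3.03 (2.09 to 4.36). The third held 1 Serpina3n UMI in Veh and 53 in Doxo, in 1 and 9 cells, and the second 5 and 1. Of the others, 7 kept their sign in the first population, with log2 ratios of 0.77 for Hp, 0.93 for Il1rn, 0.91 for Lrg1, 0.52 for Serpina3g, 0.35 for Kng1 and -0.44 for Cp. Lcn2 stood at -2.97, with the neutrophil-marker cell among its Veh cells. Saa3 changed sign, at 0.06 on 7 and 14 UMIs.

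Among bone and cartilage fibroblast-like cells a finer clustering gave a cluster led by Npy, Angptl7 and Egln3 (746 and 848 cells) and another led by Msmp, Rbp4 and Wif1 (300 and 473 cells), which by itself had 1 of the 8 bone and cartilage fibroblast markers, Prg4, and stayed unnamed. The smallest, led by Shisal2b, Ptx4 and Chodl (56 and 42 cells), held 2 and 0 Serpina3n UMIs. In the larger clusters Serpina3n stood at 54.4 and 55.3 CPM in Veh. In Doxo it reached 193 CPM in the Npy cluster, for a log2 ratio of 1.83 (1.67 to 1.99), and 69.9 CPM in the Msmp cluster, for a log2 ratio of 0.34 (0.06 to 0.62). In the Msmp cluster 100 of the 179 Veh UMIs lay in 1 cell, and without the highest cells the log2 ratios were 1.82 in the Npy cluster and 1.11 in the Msmp cluster. Lcn2 had 111 and 134 CPM in the Npy cluster and 23.8 and 41.2 CPM in the Msmp cluster, Veh first. The Npy cluster held the Veh cell with 389 Lcn2 UMIs and neutrophil markers, and without the highest cells its levels were 60.2 and 124 CPM, for a log2 ratio of 1.05 (0.88 to 1.22).

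The members were also compared within single cells, each thinned to 2000 UMIs. In bone and cartilage fibroblast-like cells Lcn2 was found in 12 of 53 Veh cells with Serpina3n, 22.6% (12.3% to 36.2%), and in 2.84% (1.91% to 4.05%) of the cells without it. In Doxo it was found in 36 of 122 such cells, 29.5% (21.6% to 38.4%), and in 4.23% (3.16% to 5.52%) of the rest. The intervals do not overlap in either library. Hp showed no such gap there, at 3.77% and 2.74% in Veh and 2.46% and 2.82% in Doxo. This class holds the Npy and Msmp clusters, which differed in the level of Lcn2 and, in Doxo, of Serpina3n. Whether Lcn2 and Serpina3n shared cells within a cluster was not tested. Among Doxo CAR-like cells, 36.7% of the 30 cells with Serpina3n and 32.1% of those without it had Serpina3g. Il1rn was found in 57.0% (48.2% to 65.5%) of the 135 Doxo CAR-like cells with Serpina3g and 40.9% (35.1% to 46.9%) of those without. In Veh, with 93 such cells, the shares were 33.3% (23.9% to 43.9%) and 24.8% (19.7% to 30.5%). That gap had the same direction with overlapping intervals, and whether it differed between the libraries was not tested.

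Likeness over cell classes was measured as the Pearson correlation of log2(CPM + 1) over 14 points, 7 classes in each of 2 libraries, among 12225 genes with at least 100 UMIs. The points share libraries and, within a library, depth. The genes most like Hp were Kng1 (0.98), Il1rn and Akr1c19 (both 0.975), Wdr86 (0.97) and Kcnq3 (0.96), so 2 of the 5 are members. Among those most like Serpina3n were Setd6, Rsph9, Vat1l and Zfyve21, from 0.875 to 0.90, and none of these is a member. Those most like Lcn2 were Fut8, Pantr1, Sms, Msmp and Manf, from 0.76 to 0.78. Among the members themselves Il1rn and Kng1 had 0.96, Serpina3g and Hp 0.84, and Serpina3n and Lcn2 0.51.

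Genes around the members were taken as 7 lists in CAR-like cells. Of all genes with at least 10 UMIs there, 5.16% were at least 2-fold higher in Doxo and 4.95% at least 2-fold lower. Of 34 other acute phase proteins that rise in inflammation, 18 had at least 10 UMIs, 2 were at least 2-fold higher in Doxo and 5 lower, and the median log2 ratio was -0.58 beside 0.06 for all genes. The higher ones were the protease inhibitors Serpina1a (20 and 128 UMIs, 105 of them in 1 Doxo cell) and Serpina1d (13 and 44 UMIs, 34 in 1 Doxo cell). The lower ones with most UMIs were Mt1, a metallothionein, with 3897 and 2342 UMIs and a log2 ratio of -1.13, the pentraxin Ptx3 with 2181 and 1415 UMIs and -1.02, and the broad protease inhibitor A2m with 81 and 32 UMIs and -1.73. The remaining lower genes were F3 with 28 and 18 UMIs, and Chil3 with 34 and 4, of which 33 lay in 1 Veh cell. Without the highest cell of each gene and library, 0 of 16 genes of this list were higher and 3 were lower (A2m, Mt1 and Ptx3), with a median of -0.57. Serping1, the C1 inhibitor, had 2157 and 2053 CPM, for a log2 ratio of -0.07. Of 8 acute phase proteins that fall in inflammation, 4 had enough UMIs, and 2 were higher and 0 lower, with a median of 0.95. Rbp4, the retinol carrier, had 186 and 668 UMIs and a log2 ratio of 1.44, and Ahsg was the other, with 6 and 38 UMIs, 32 of them in 1 Doxo cell. Without the highest cell of each gene and library 1 gene, Rbp4, was higher and the median was 0.16. In the same list transferrin (Trf) stood at -0.27 and Igf1 at 0.46. The list of other Serpina3 genes, with 2 of 9 at 10 UMIs, had 0 past 2-fold in either direction and a median of 0.29.

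The lists upstream of the members had as many or more genes lower than higher in Doxo CAR-like cells. With 7 to 18 genes counted a list, beside the shares of all genes given above, these counts are descriptions only. Of 10 inducing cytokines 7 had at least 10 UMIs, 3 higher and 3 lower, with a median of -0.96. Il6 had 214 UMIs in 29 Veh cells and 33 in 15 Doxo cells, for a log2 ratio of -3.08, and its relative Lif had 66 and 5, for a log2 ratio of -4.00. Il11 was the third lower gene, on 36 and 7 UMIs. Of the higher ones, Osm had 42 of its 44 Doxo UMIs and Il1b 17 of its 20 in 1 cell each, and Ctf1 was the other, on 7 and 28 UMIs. Of 12 cytokine receptors 1 was higher (Il6ra) and 3 lower (Il1r2, Il1rl1 and Il17ra, the last at -1.12), with a median of -0.05, Lifr at -0.31 and Tnfrsf1a at 0.12. Il6ra had 6 and 25 UMIs, Il1r2 9 and 4, and Il1rl1 18 and 0, with 12 of the 18 in 1 Veh cell. Of 19 transcription factors and feedback genes 18 were counted, 0 higher and 3 lower, with a median of -0.50. The lower ones were Cebpb, a C/EBP factor of the response (2550 and 1090 UMIs, -1.63), Nfkb1 (-1.22) and the kinase Jak2 (-1.19), while Fos and Jun, the most abundant, stood at 0.16 and -0.49. Of 25 binding partners and target proteases 18 were counted, 3 higher and 3 lower, with a median of 0.03. The iron exporter Slc40a1 had 228 and 681 UMIs, for a log2 ratio of 1.18, and Heph, a ferroxidase akin to ceruloplasmin, 85 and 271 UMIs, for a log2 ratio of 1.27. Klkb1, plasma kallikrein, was the third higher gene, on 1 and 9 UMIs. Hmox1, which breaks down heme, stood at -1.37, the neutrophil protease Elane at -2.32 beside the neutrophil RNA given above, and Mmp9 was the third lower gene. Mmp9 had 22 and 8 UMIs, with 14 of the Veh UMIs in 1 cell, and stood at -0.59 without the highest cells. Ctsl stood at -0.16. 

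Several of these list values differed when the Il6-rich population, 81 Veh and 3 Doxo cells, was left out. Shares of all genes past 2-fold are not given without that population, so counts there are descriptions only. The population held 201 of the 214 Veh Il6 UMIs, and without it Il6 stood at -0.26 on 13 and 20 UMIs. Of the transcription factors and feedback genes, 0 were then past 2-fold, with a median of 0.05 and with Cebpb and Nfkb1 at -0.26 and Jak2 at -0.46. Receptors had 1 higher and 0 lower, with a median of 0.26. The inducing cytokines had 3 higher and 3 lower, with a median of -0.26. The lower ones were Il11 on 30 and 6 UMIs, Lif on 6 and 5, and Il33 on 9 and 8, so these calls rest on few UMIs. Other acute phase proteins that rise in inflammation had a median of -0.07, with Mt1 at -0.24 and Ptx3 at -0.27 but A2m at -1.83. Hmox1 stood at 0.32, Slc40a1 at 0.86 and Heph at 1.06. The members' median was 0.53, and that of all genes -0.04. Without the highest cell of each gene and library, by contrast, the transcription factors kept 0 higher and 3 lower genes.

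**Figure D4:**
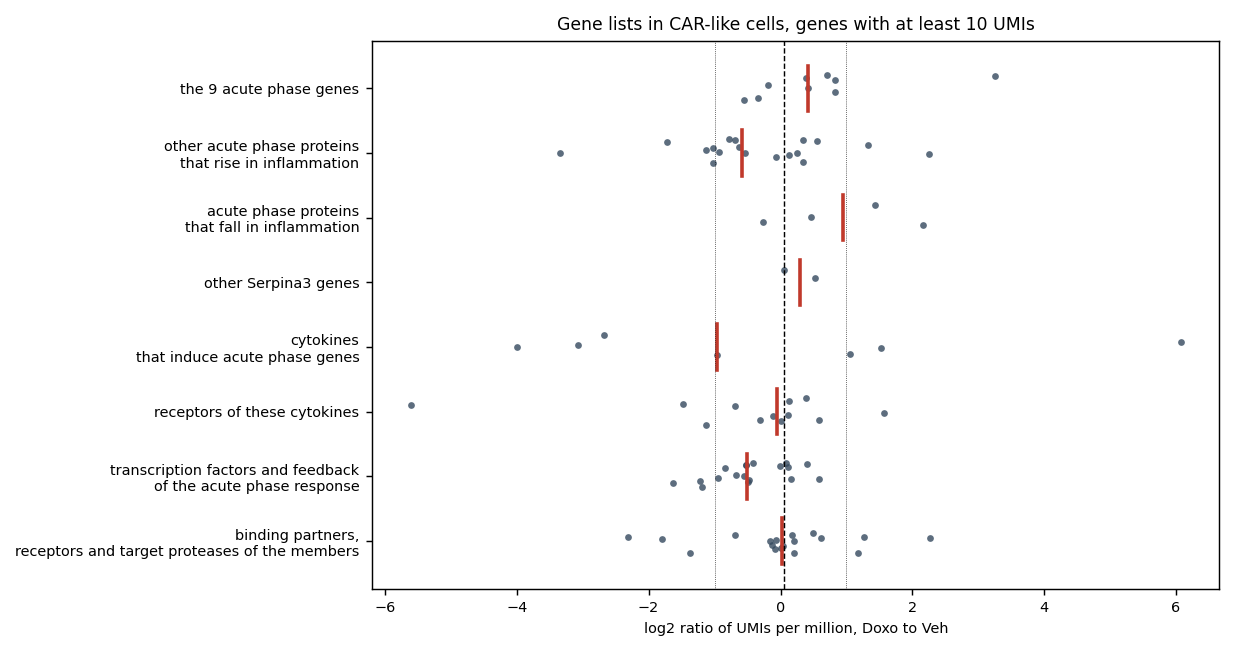
The members and 7 gene lists in CAR-like cells. Each point is the log2 ratio of Doxo to Veh of 1 gene with at least 10 UMIs in CAR-like cells, the red bar is the median of the list, and the dashed line is the median of all 12796 such genes (0.06). Medians are 0.41 for the members, -0.58 for other acute phase proteins that rise in inflammation, and -0.96 for the inducing cytokines.

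How far the members' ratios in CAR-like cells depend on the choice of cells was read from 15 alternatives. Hp, Il1rn, Lrg1, Serpina3g, Kng1 and Serpina3n kept a positive log2 ratio in all 15. Those of Hp ranged from 0.70 to 1.26, of Il1rn from 0.79 to 1.38, of Kng1 from 0.35 to 0.93, and of Serpina3g from 0.22 to 0.996. Serpina3n was picked for its rise in Doxo CAR-like cells, so its sign under the alternatives is a description only. It ranged from 0.75 to 3.43, and its lowest value came from taking cells by CAR markers alone. The highest values of Hp, Il1rn, Kng1 and Serpina3g came from that same choice. That choice took 788 Veh and 768 Doxo cells, of which 46.7% and 55.2% were CAR-like by clustering, and CAR-like cells held 4.35% and 38.6% of the Serpina3n UMIs of the cells so taken. Cp was negative except under that choice, where it was 0.15, and Lcn2 ranged from -2.61 to 2.91.

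**Figure D5:**
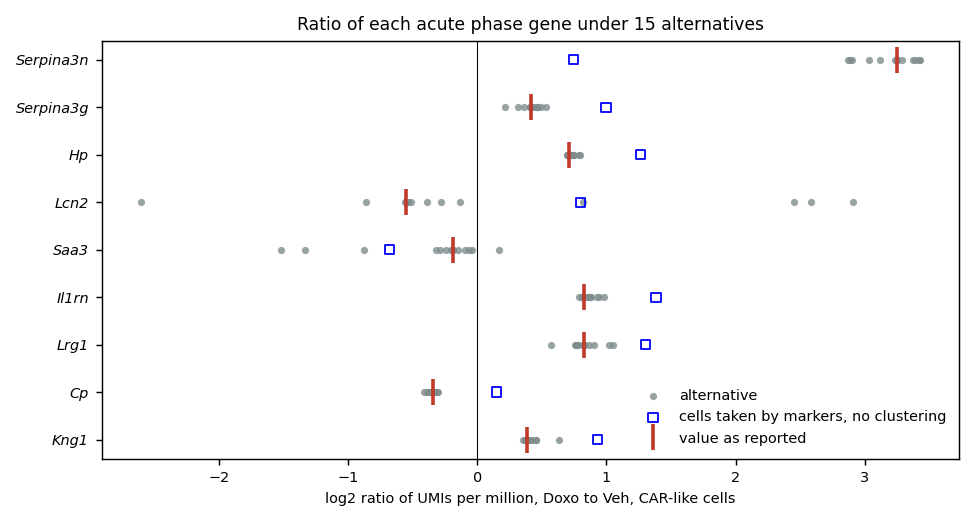
Ratios of the members in CAR-like cells under other choices. Each row is a member, the red bar its log2 ratio of Doxo to Veh as reported, the grey points its value under alternatives in the choice of cells, scaling or clustering, and the blue square its value when cells were taken by CAR markers alone. Hp stays between 0.70 and 1.26, Lcn2 runs from -2.61 to 2.91, and Serpina3n has 1 value, 0.75, apart from the rest.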

How the data were processed

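Each library was made with the 10x Chromium 3′ v3 kit. The authors aligned reads to GRCm38 (mm10) with Cell Ranger, and the submitters' processing notes also name Partek. Filters of the study's methods (per cell 200 to 10000 genes, a UMI total of 100 to 100000, and a mitochondrial share up to 10%) were checked on the files. The deposited values are log2 values per gene and cell, normalized by the authors to a sum of 1000000 in each cell. They were inverted to UMIs, of which 99.94% were whole within 0.05 (values up to 50 UMIs), and 20 gene symbols, no member among them, were not whole. The inversion assumed 2 rounds of scaling to 1000000, each followed by log2(1 + value). It took the commonest nonzero level of a cell as 1 UMI. Cells had 1506 or more UMIs. Clustering used Seurat 5.3.0 in R 4.3.3 (2000 variable genes without the acute phase lists, 35 principal components, resolution 0.1). A cluster was named where at least 3 markers of 1 class were at least 2-fold higher and found in at least 10% of its cells. No doublet caller was run.

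UMIs were summed per class and library with Python 3.11.15 and scipy 1.17.1, with exact Poisson, binomial and conditional binomial intervals (95%, counting error only). Called means at least 2-fold among genes with at least 10 UMIs in a class. Shares of cells were also taken with cells thinned to 2000 UMIs, leaving out shallower cells (355 Veh and 416 Doxo CAR-like cells stayed). The members, lists and markers were chosen with earlier results of these data known. Besides the 9 members, genes were named from the lists where CAR-like cells held 50 or more of their UMIs and they were past 2-fold there, or were among the 2 with most UMIs of a list, all Serpina3 genes with at least 10 UMIs in bone cells, and the 5 genes most like Serpina3n, Hp and Lcn2 over classes. A gene that this rule names is not reported here. List genes past 2-fold on fewer UMIs (F3, Chil3, Ahsg, Il11, Osm, Il1b, Ctf1, Il6ra, Il1r2, Il1rl1, Il33, Klkb1 and Mmp9) were named after their values were seen. Coordinates are those of GENCODE M21 on GRCm38, whose match to the release the authors counted on was not checked. The inversion and the ratios were tested on simulated data.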

Additional observations from a re-analysis of the deposited data

Results flagged for a closer look

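Serpina3n had log2 ratios of Doxo to Veh of opposite sign in different cell classes, each past 2-fold: 3.25 in CAR-like cells, 1.44 and 1.67 in the fibroblast-like classes (bone and cartilage, then arteriolar and endosteal) and 4.72 in the unnamed cluster, where 3 of 55 Doxo cells held 52 of 66 UMIs, against -2.85 in chondrocyte-like cells. The value in CAR-like cells is the one Serpina3n was picked for. Lcn2 stood at 3.45 in the unnamed cluster, on 1 and 16 UMIs, and at -2.68 in chondrocyte-like cells, on 65 and 6 UMIs. All 16 of those Doxo UMIs lay in 1 cell, and 59 of those 65 Veh UMIs in 1 cell, so each of these Lcn2 values rests mostly on 1 cell. With 1 library a condition, these differences between classes were not tested. In chondrocyte-like cells, 1 deep Veh cell had 62 of 129 Serpina3n UMIs and 59 of 65 Lcn2 UMIs. It also held fibroblast markers, as did the Veh class as a whole, at 7940 CPM. Without the highest cell of each library, 67 Veh and 8 Doxo UMIs were left for Serpina3n, and 6 and 3 for Lcn2. The Lcn2 value there thus rests mostly on that cell, and the Serpina3n value in part. The cell's part in the difference between classes was not tested.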

How the results depend on the processing

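No paired analysis was possible because each condition has 1 library. Of the values that answer a comparison, 160 stayed within the interval set for them (counting error for a gene, the spread over genes for a list median, 1.5 times for a count) and 13 moved. Of the others, 386 stayed, 81 moved and 2 reversed. When cells were taken by CAR markers alone, without clustering, the Serpina3n log2 ratio was 0.75 against 3.25, the members' median 0.93 and that of the other Serpina3 genes 0.97, and 3 members (Hp, Il1rn and Lrg1) were past 2-fold upward. Of the cells so taken, 46.7% were CAR-like by clustering in Veh and 55.2% in Doxo. Values under that choice therefore also carry a mix of classes that differed between the libraries. The other Serpina3 genes had a median of 0.59 without the Il6-rich population. In CAR-like cells 2 members rather than 1 were past 2-fold upward under each of 5 alternatives. Lrg1 was the second without the Il6-rich population and with stricter cell filters (1000 or more genes, mitochondrial share up to 5%). Lcn2 was the second without cells of over 2 times the median depth, without cells with any UMI of S100a8, S100a9, Ngp, Camp or Ltf, and without cells with at least 20 neutrophil UMIs. Downward, 1 member rather than 0 was past 2-fold with stricter cell filters and without the highest cell (Saa3), and without the population with fibroblast markers (Lcn2). As reported, 5.16% of all genes were past 2-fold upward in CAR-like cells and 4.95% downward. Those shares are not given here under the alternatives, so the counts of members under them are descriptions only. The Lcn2 ratio in chondrocyte-like cells reversed from -2.68 to 0.32 without the deep cells and to 0.50 without cells with granulocyte UMIs. The deepest Veh cell held 59 of the 65 Veh UMIs and 2 UMIs of the neutrophil markers. With its 59 UMIs kept against 6 Doxo UMIs the ratio could not be positive, so its removal is part of both reversals. Other causes were not tested. The alternatives without neutrophil RNA, without the fibroblast-marker population and without the highest cells were chosen after seeing the data. Depth limits Saa3 in all classes, and Serpina3g, Il1rn and Kng1 outside CAR-like cells, where most levels are a few CPM.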
